A study of Homo sapiens with 5 samples.

Results

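The first of a pair of small interfering RNAs against AURKA was compared with a non-targeting siRNA, gene by gene, in GFP-SAS cells. GFP-SAS is a squamous cell carcinoma line from the human tongue that carries green fluorescent protein. One array held RNA from cells given siAURKA-1 at 10 nM, and 1 array held RNA from cells given the non-targeting siRNA (siNT). Both treatments lasted 24 h, and neither array received an inhibitor. The comparison covered all 18239 genes with a value in the series, and used 2 of its 5 arrays. The other arrays held cells given DMSO, the vehicle; MLN8237 (alisertib), an Aurora A kinase inhibitor, at 100 nM; and a second siRNA, siAURKA-2, at 10 nM. They are printed beside the pair for reference. The labels name a single cell line throughout and no separate cultures, so every group is 1 sample of 1 line.

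Aurora kinase A, the product of AURKA, is a mitotic kinase that matures centrosomes and builds the bipolar spindle, where TPX2 activates it. Dividing cells copy their DNA in S phase under E2F factors, then raise a second wave of genes for the spindle, kinetochores and cytokinesis, many through a promoter element called the CHR. In squamous epithelium, proliferating basal cells leave the cycle as they differentiate, under transcription factors such as ZNF750 and GRHL3.

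A gene's value on an array is the median of its probe sets. The values are taken as log2 and are centred, so that 0 is the median of the 5 arrays for each probe set. They compare arrays for 1 gene and do not give abundance, so the labelled cell type could not be checked against the level of its markers. A difference means siAURKA-1 minus siNT on the log2 scale unless another pair is named, and a log2 difference of 1 is 2-fold. With 1 array a side there is no replicate check, no error and no p-value for any value below. Genes were counted at fixed sizes of 1.5-fold and 2-fold.

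The targeted transcript was lower with its siRNA. AURKA, a protein-coding gene on chromosome 20, read 0.15 after DMSO, 0.64 after MLN8237, 0.00 after siNT, -3.36 after siAURKA-1 and -2.64 after siAURKA-2. Both siRNA arrays lay far below the other 3. The difference was -3.36, a 10.3-fold lower value that left 9.71% of the siNT reading, from a single probe set. Among the 13 other measured partners of Aurora A, none was 2-fold away from siNT in either direction. AJUBA, a LIM-domain scaffold that takes part in Aurora A activation, was the only one past 1.5-fold (-0.73). TPX2 was at -0.39, the activator gene BORA at 0.03 and the substrate gene TACC3 at -0.21. The sister kinase gene AURKB was at -0.95, just short of 2-fold, whereas its complex partners BIRC5 (survivin) and INCENP gave -0.41 and -0.20.

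Over all 18239 genes, 251 were at least 2-fold lower (1.38%) and 107 at least 2-fold higher (0.587%). At 1.5-fold the shares were 4.48% lower and 2.57% higher. These 4 percentages are the background for every gene group that follows. For counts by side alone, 42.2% of all genes lay below siNT and 47.2% above it, and siAURKA-1 was the lowest of the 5 arrays for 20.9% and the highest for 27.8%. The median difference was 0.00, and the SD over genes was 0.32, against 0.20 for siNT minus DMSO. The siAURKA-1 array was the lowest of all 5 for 233 of the 251 lower genes (92.8%) and the highest of all 5 for 97 of the 107 higher genes (90.7%). These genes were chosen by the siAURKA-1 value itself, which favours that position, so both shares are a description only. For 79 lower and 40 higher genes siAURKA-1 lay at least 2-fold beyond each of the other 4 arrays. By the same rule siAURKA-2 stood apart for 59 genes, siNT for 6, DMSO for 0 and MLN8237 for 0. The siNT array was the one 2-fold beyond the others for 3 of the lower genes and 3 of the higher genes. Against DMSO, 138 of the 251 and 63 of the 107 were still at least 2-fold apart on the same side. Of the lower genes, 88 had 1 probe set (35.1%), beside 6417 of all 18239 genes, and 148 had several that were all on the same side of 0. The corresponding numbers of higher genes were 46 (43%) and 54. Choosing genes by the median of these same probe sets favours agreement in sign. Several probe sets that were all past 2-fold were found for 67 lower and 26 higher genes. By transcript class, of 17398 protein-coding genes 244 were lower (1.4%) and 104 higher (0.598%), near the shares of all genes. Of 391 long non-coding RNA genes 2 were lower (0.512%) and 0 higher.

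**Figure D1:**
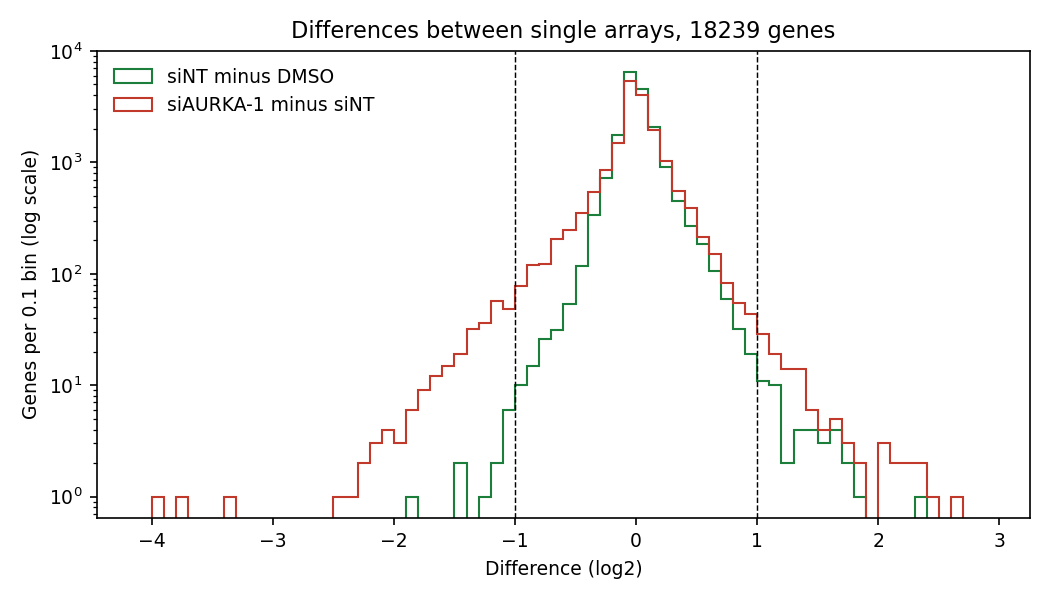
Histogram of log2 differences over 18239 genes in bins of 0.1, with the number of genes on a log scale; red is siAURKA-1 minus siNT, green is siNT minus DMSO, and dashed lines mark 2-fold. The red histogram reaches further on both sides, with 251 genes beyond the left line and 107 beyond the right one.

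Genes of the cytoskeleton and of inflammation were among the lowest. ANKRD1, a nuclear ankyrin repeat protein commonly used as a readout of YAP, read -1.08 after DMSO, 0.16 after MLN8237, 0.47 after siNT, -3.51 after siAURKA-1 and 0.00 after siAURKA-2. VIM, which encodes the intermediate filament vimentin, read -1.68 after DMSO, 0.14 after MLN8237, 0.06 after siNT, -3.66 after siAURKA-1 and 0.00 after siAURKA-2. For both genes siAURKA-1 was the lowest array and DMSO the next lowest, so the difference of -3.98 for ANKRD1 shrank to -2.43 against DMSO, and that of -3.72 for VIM to -1.97. IL1A, the alarmin interleukin 1 alpha, read -0.36 after DMSO, 0.00 after MLN8237, 0.09 after siNT, -2.39 after siAURKA-1 and 0.80 after siAURKA-2. LCP1, the actin-bundling L-plastin, read -0.39 after DMSO, 0.00 after MLN8237, 0.47 after siNT, -1.78 after siAURKA-1 and 1.15 after siAURKA-2. In these 2 genes siAURKA-1 lay below and siAURKA-2 above every other array, and the differences were -2.48 and -2.25, or -2.03 and -1.39 against DMSO. The LCP1 difference of -2.25 is the middle of a pair of probe sets at -3.57 and -0.93.

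Genes of other functions were as far below siNT. NSMCE4A, a subunit of the SMC5/6 complex, read 0.13 after DMSO, 0.03 after MLN8237, 0.00 after siNT, -2.17 after siAURKA-1 and -0.43 after siAURKA-2, with all 6 of its probe sets lower. GLTP, a glycolipid transfer protein, read -0.04 after DMSO, 0.00 after MLN8237, 0.19 after siNT, -1.69 after siAURKA-1 and 0.36 after siAURKA-2. LPAR1, a receptor for lysophosphatidic acid, read 0.07 after DMSO, 0.17 after MLN8237, -0.02 after siNT, -1.75 after siAURKA-1 and 0.00 after siAURKA-2. In each of these the siNT, DMSO and MLN8237 arrays lay close together and siAURKA-1 stood alone, with differences of -2.17, -1.88 and -1.74. PLAGL1, an imprinted zinc finger gene (-1.81, 4 of 5 probe sets lower), the monocarboxylate transporter family gene SLC16A12 (-2.09), the molybdopterin synthase gene MOCS2 (-1.72) and THAP10 (-1.73) were at least 2-fold below each other array as well. PELI1, an E3 ligase of Toll-like and interleukin 1 receptor signalling (-2.16), NEDD4, a HECT ubiquitin ligase (-1.98), and the flippase gene ATP8B1 (-1.64) met the same condition. AP2B1 of the clathrin adaptor (-1.43) also met it, and is named after its value was seen.

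The highest gene was an epithelial regulator. ZNF750, a transcription factor of epidermal differentiation, read -0.06 after DMSO, -0.06 after MLN8237, 0.00 after siNT, 2.60 after siAURKA-1 and 0.02 after siAURKA-2. The other 4 arrays lay within 0.1 of one another, and all 4 probe sets were higher with siAURKA-1, by 2.60 at the median (6.07-fold). AHNAK2, a large scaffold protein, read -0.58 after DMSO, -0.21 after MLN8237, 0.00 after siNT, 2.41 after siAURKA-1 and 0.98 after siAURKA-2, and WNT10A, a WNT ligand of ectodermal tissues, read 0.08 after DMSO, 0.00 after MLN8237, -0.57 after siNT, 1.69 after siAURKA-1 and -0.24 after siAURKA-2. Here siAURKA-1 was the highest array by a wide margin, and the differences were 2.41 and 2.26. The matrix protein gene MATN2 read 0.00 after DMSO, -0.21 after MLN8237, -0.16 after siNT, 1.95 after siAURKA-1 and 0.41 after siAURKA-2, and GSN, which encodes the actin-severing protein gelsolin, read -0.34 after DMSO, -0.23 after MLN8237, 0.00 after siNT, 1.68 after siAURKA-1 and 0.06 after siAURKA-2. They differed by 2.12 and 1.68. GASK1B (1.80, 4 of 5 probe sets higher), the RAB27 effector SYTL2 (1.68), the calcium-binding S100A4 (1.58), vasorin (VASN, 1.51), the tyrosine kinase FRK (1.30) and the ion transport regulator FXYD3 (1.31, 5 of 6 probe sets higher) were likewise at least 2-fold above each other array.

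For several of the highest genes the siNT array was low. RAB40B, a small GTPase gene, read -0.01 after DMSO, 0.00 after MLN8237, -1.90 after siNT, 0.26 after siAURKA-1 and 0.93 after siAURKA-2, and MYL12B, a myosin light chain gene, read -0.03 after DMSO, 0.00 after MLN8237, -1.31 after siNT, 0.15 after siAURKA-1 and 0.27 after siAURKA-2. In both, siNT was the lowest array and siAURKA-1 lay near DMSO, so that the differences of 2.16 and 1.46 became 0.27 and 0.17 against DMSO. MRS2, a mitochondrial magnesium channel, read 0.00 after DMSO, 0.17 after MLN8237, -1.42 after siNT, 0.58 after siAURKA-1 and -1.24 after siAURKA-2 and was low on the siAURKA-2 array as well. It gave 2.0 against siNT and 0.58 against DMSO. SCG2, encoding secretogranin II, was at 2.31 and 1.44. Among lower genes, TMPRSS11E, a membrane serine protease of squamous epithelium, read -0.52 after DMSO, 0.00 after MLN8237, 1.82 after siNT, -0.20 after siAURKA-1 and 0.35 after siAURKA-2. Its difference of -2.02 from siNT stood beside 0.32 from DMSO, which is the opposite sign. ALOX5AP of leukotriene synthesis, where siNT was again the highest array, was likewise at -1.18 and 0.36. HSD11B1, the enzyme that regenerates cortisol, was at -1.73 and 0.09, but siNT was not its outlying array. There siAURKA-2 was highest (1.12), siNT read 0.56, and DMSO (-1.25) lay near siAURKA-1 (-1.16).

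**Figure D2:**
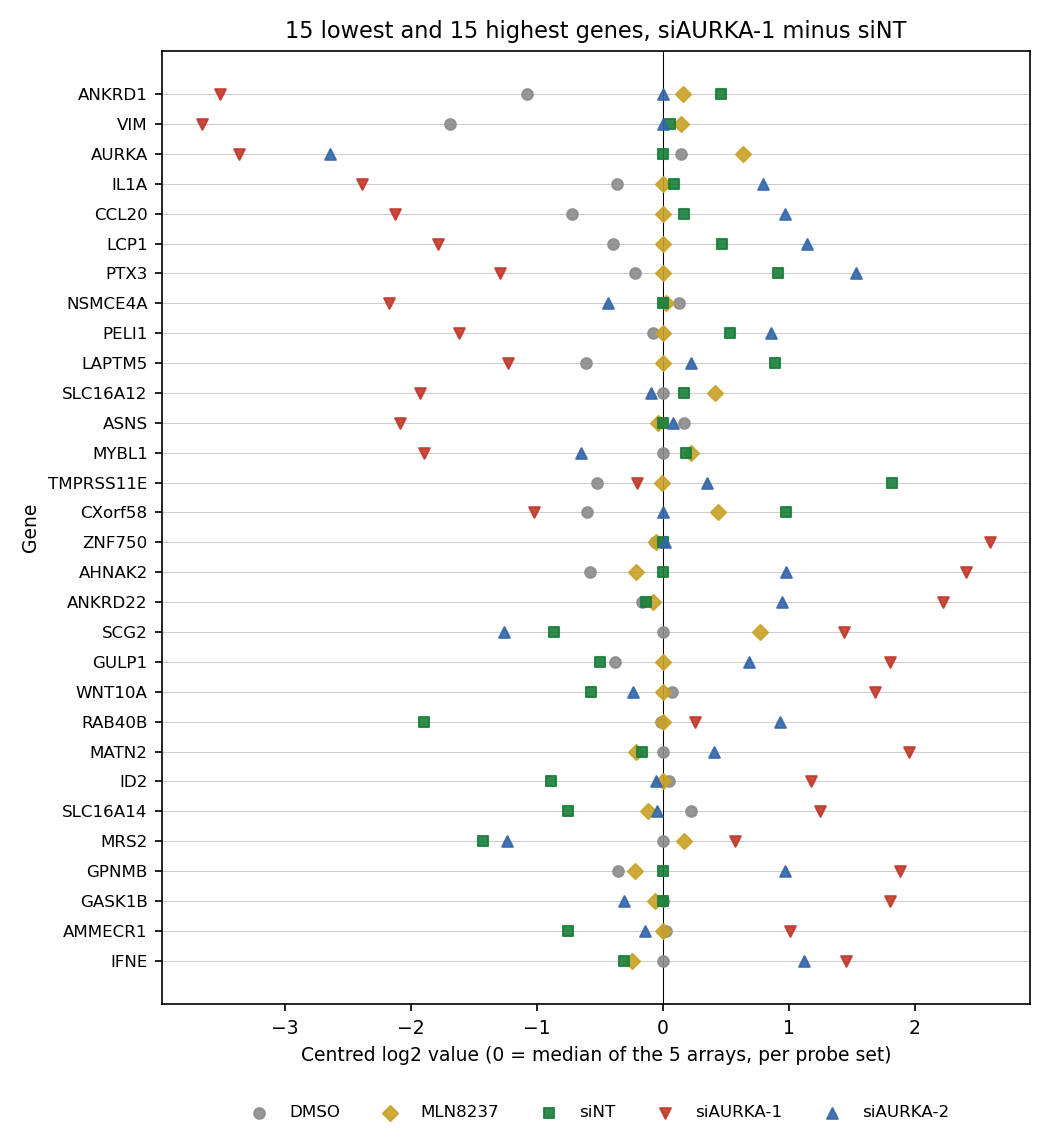
Centred log2 values of the 15 genes lowest and the 15 highest by siAURKA-1 minus siNT, 1 row a gene, with a marker for each of the 5 arrays. The red triangles of siAURKA-1 stand apart in most rows, whereas in the TMPRSS11E and RAB40B rows the green square of siNT is the outlying array (1.82 and -1.90).

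Genes of DNA replication lay below siNT in nearly every member. All 30 measured members of the MCM helicase and origin licensing list lay below siNT (42.2% of all genes did), 18 of them at least 1.5-fold and 5 at least 2-fold lower (background 4.48% and 1.38%), and the list median was -0.66. MCM10, a replication initiation factor, read 0.43 after DMSO, 0.00 after MLN8237, 0.03 after siNT, -1.36 after siAURKA-1 and -0.56 after siAURKA-2. CDC45, which activates the MCM helicase, read 0.39 after DMSO, 0.00 after MLN8237, 0.04 after siNT, -1.22 after siAURKA-1 and -0.51 after siAURKA-2. In both, DMSO was highest and siAURKA-1 lowest, with siAURKA-2 between siAURKA-1 and siNT, and the differences were -1.38 and -1.26. Of the helicase-activating GINS complex 3 subunits passed 2-fold, GINS2 (-1.27), GINS3 (-1.23) and GINS4 (-1.04), while GINS1 was at -0.41. Of the helicase subunits, MCM2 was at -0.82, MCM3 at -0.60, MCM4 at -0.87, MCM5 at -0.23, MCM6 at -0.69 and MCM7 at -0.89. The licensing inhibitor geminin (GMNN, -0.98) and the kinase CDC7 (-0.92), which fires origins, were lower, while its activator DBF4 was at -0.07 and the origin subunit ORC4 at -0.03.

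DNA polymerase genes were lower in most members too. Of 23 members, 22 lay below siNT, 10 at least 1.5-fold and 3 at least 2-fold, with a median of -0.48. POLE2, the second subunit of the leading-strand polymerase epsilon, read 0.55 after DMSO, 0.00 after MLN8237, 0.06 after siNT, -1.60 after siAURKA-1 and -0.25 after siAURKA-2 and differed by -1.66. POLA2 (-1.35) and the primase gene PRIM1 (-1.20), which start each new strand, were lower, while the catalytic genes gave -0.11 for POLE, -0.86 for POLD1 and -0.63 for POLA1. The sliding clamp gene PCNA was at -0.48, the middle of a pair of probe sets at -0.88 and -0.08. RPA1, the large subunit of the single-strand binding protein, was the exception above siNT (0.24). In nucleotide synthesis, 2 of 22 members were at least 2-fold and 8 at least 1.5-fold lower (median -0.48). TYMS, thymidylate synthase, read 0.37 after DMSO, 0.19 after MLN8237, -0.06 after siNT, -1.24 after siAURKA-1 and 0.00 after siAURKA-2, lowest with siAURKA-1 by more than 2-fold against every array (-1.18). MTHFD2 of mitochondrial folate metabolism was at -1.28, the ribonucleotide reductase gene RRM2 at -0.84 and its partner RRM1 at -0.42. The purine genes PPAT (0.04) and ATIC (0.00) lay near siNT.

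Genes for chromatin assembly and repair at the replication fork were lower as well. HELLS, a chromatin remodeller needed for DNA methylation, was at -1.17, the maintenance methyltransferase DNMT1 at -0.79 and the histone chaperone ASF1B at -0.73. In that list 8 of 17 members were at least 1.5-fold lower and the median was -0.49. Of 24 homologous recombination and Fanconi anaemia genes, 10 were at least 1.5-fold and 2 at least 2-fold lower, and the median was -0.54. These 2 were the checkpoint kinase CHEK1 (-1.10) and the ubiquitin ligase FANCL (-1.07). FANCI (-0.97) and the recombination motor RAD54L (-0.86) followed, whereas ATM and CHEK2 differed by 0.00. The ATM probe sets ranged from -0.57 to 0.06. Among E2F and G1 genes, E2F1 (-0.85) and E2F8 (-1.01) were lower. CDK6, a G1 kinase, read -0.08 after DMSO, 0.00 after MLN8237, 0.48 after siNT, -1.08 after siAURKA-1 and 0.49 after siAURKA-2 and differed by -1.56 (-1.0 against DMSO), and its cyclin CCND2 gave -1.44. The p21 inhibitor gene CDKN1A was the sole member at least 2-fold higher (1.05), with p15 (CDKN2B) at 0.58.

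**Figure D3:**
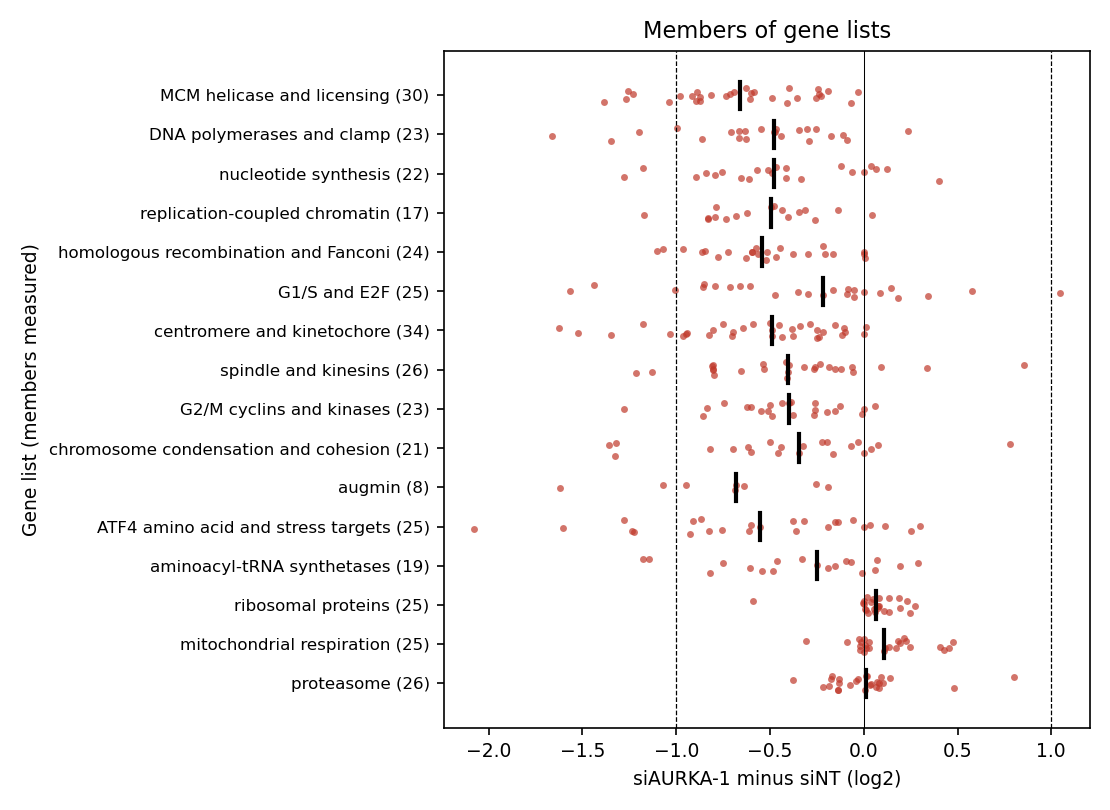
Difference of siAURKA-1 from siNT for every measured member of 16 gene lists, 1 point a gene, with a bar at the list median and dashed lines at 2-fold. The replication and chromosome lists lie mostly left of 0 (MCM helicase and licensing median -0.66), while ribosomal protein, respiration and proteasome genes gather near 0.

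Centromere genes were lower in many members. Of 34 centromere and kinetochore genes, 32 lay below siNT, 15 at least 1.5-fold and 5 at least 2-fold (background 4.48% and 1.38%), with a median of -0.49. CENPU read 0.08 after DMSO, 0.00 after MLN8237, 0.14 after siNT, -1.49 after siAURKA-1 and -0.29 after siAURKA-2, and MIS18A, which licenses centromeres for new CENP-A, read 0.24 after DMSO, 0.18 after MLN8237, 0.00 after siNT, -1.52 after siAURKA-1 and -0.35 after siAURKA-2. Both stood at least 2-fold below every other array, and the differences were -1.62 and -1.52. Other subunits of the constitutive centromere network were lower to varying degree, namely CENPH (-1.35), CENPK (-1.17) and CENPM (-1.03), but CENPP was at 0.00 and CENPQ at -0.10. CENPS (-1.37) and CENPX (-1.34), which form a DNA-binding pair, were not in the list and are named after their values were seen. In the outer kinetochore NDC80 was at -0.59, NUF2 at 0.01, SPC25 at -0.44 and the scaffold KNL1 at -0.11. The probe sets of KNL1 ranged from -0.60 to 0.00, and those of CENPP from -0.71 to 0.06.

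Chromosome structure genes and motors differed gene by gene. TOP2A, topoisomerase II alpha, read -0.01 after DMSO, 0.00 after MLN8237, 0.06 after siNT, -1.30 after siAURKA-1 and 0.12 after siAURKA-2, and NCAPG of condensin I read 0.00 after DMSO, 0.19 after MLN8237, 0.10 after siNT, -1.22 after siAURKA-1 and -0.13 after siAURKA-2. The other 4 arrays lay close together for both, and the differences were -1.36 and -1.32. The condensin ATPase SMC2 was at -1.33 and its partner SMC4 at -0.60 (-0.48 against DMSO), with NCAPH at -0.03. The NCAPH probe sets ranged from -0.47 to -0.01. ESCO1, a cohesin acetyltransferase, lay above siNT (0.78). Of 26 spindle and kinesin genes, 8 were at least 1.5-fold and 2 at least 2-fold lower (median -0.40). The 2 were KIF15, a plus-end motor that backs up KIF11 (-1.21), and HMMR, a spindle pole protein (-1.13). KIF11 itself was at -0.41, CENPE at -0.81, and the Aurora B substrate KIF4A at 0.09. The ciliary motor gene KIF3A was the only one at least 1.5-fold higher (0.86), yet it lay below DMSO (-0.23). Among G2/M kinases and cyclins, MELK (-1.28) was the member past 2-fold, followed by MYBL2 (-0.86), CDK1 (-0.83) and CDC25A (-0.75). FOXM1 (-0.16), NEK2 (0.00) and CDC25C (0.06) were nearer to siNT.

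Augmin is an 8-subunit complex that loads gamma-tubulin onto spindle microtubules, and Aurora A phosphorylates its HAUS8 subunit. All 8 subunit genes lay below siNT and read lowest with siAURKA-1 among the 5 arrays, against 42.2% and 20.9% of all genes, 6 at least 1.5-fold and 2 at least 2-fold lower. HAUS8 read -0.03 after DMSO, 0.00 after MLN8237, 0.40 after siNT, -1.22 after siAURKA-1 and 0.05 after siAURKA-2 and differed by -1.62, with HAUS1 at -1.07, HAUS2 at -0.95 and HAUS3 and HAUS5 at -0.26 and -0.19. Of 21 tubulin genes 7 were at least 1.5-fold lower and 0 higher. TUBA1A (-1.30, or -0.39 against DMSO), TUBA4A (-1.04, or -0.75 against DMSO) and TUBB2A (-1.01, or -0.30 against DMSO) passed 2-fold, TUBB was at -0.96 and the gamma-tubulin gene TUBG1 at -0.61. Tubulin genes are close in sequence, so probe sets may share signal. Of 29 genes named for centrosomal CEP proteins, 7 were at least 1.5-fold lower, among them CEP57 (-1.38, 8 of 10 probe sets lower), CEP63 (-1.26, or -0.94 against DMSO) and CEP120 (-1.08, or -0.75 against DMSO). CEP192, which recruits Aurora A to centrosomes, was at -0.04, the middle of a pair of probe sets at -0.42 and 0.35. These 3 families were counted after values were seen.

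Promoters of the lower genes were read for known cell cycle motifs, in windows of 250 bases before to 50 after the first listed start of a gene (RefSeq, GRCh38.p14). A window was held for 14484 of the 18239 genes. The E2F letters searched were TTTGGCGC, TTTCGCGC and TTTCCCGC on both strands. They occurred in 3.85% of all windows, in 23 of 206 genes at least 2-fold lower (11.2%) and in 1 of 88 at least 2-fold higher (1.14%). In the 3 replication and nucleotide lists they occurred in 22 of 65 windows (33.8%), and in 13 of 31 members that were at least 1.5-fold lower (41.9%). Among the 34 other members it was 9 (26.5%). Of the 6 lowest members 3 held such letters, and their windows are shown because this motif recurred in the lists that were lower as a group. The capitals mark the E2F match.
POLE2, chr14:49688165-49688464, minus strand: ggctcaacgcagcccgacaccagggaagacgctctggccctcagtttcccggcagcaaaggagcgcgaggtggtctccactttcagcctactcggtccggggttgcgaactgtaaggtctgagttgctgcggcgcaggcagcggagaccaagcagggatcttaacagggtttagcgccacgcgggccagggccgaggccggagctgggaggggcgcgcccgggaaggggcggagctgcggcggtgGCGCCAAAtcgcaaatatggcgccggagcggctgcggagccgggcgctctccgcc
POLA2, chr11:65261712-65262011, plus strand: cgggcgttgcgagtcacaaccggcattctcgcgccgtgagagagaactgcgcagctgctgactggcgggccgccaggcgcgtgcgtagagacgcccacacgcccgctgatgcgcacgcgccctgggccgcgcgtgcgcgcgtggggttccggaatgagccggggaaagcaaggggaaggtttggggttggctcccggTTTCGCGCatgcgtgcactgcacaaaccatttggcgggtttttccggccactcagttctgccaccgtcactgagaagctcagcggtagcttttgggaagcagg
GINS2, chr16:85688905-85689204, minus strand: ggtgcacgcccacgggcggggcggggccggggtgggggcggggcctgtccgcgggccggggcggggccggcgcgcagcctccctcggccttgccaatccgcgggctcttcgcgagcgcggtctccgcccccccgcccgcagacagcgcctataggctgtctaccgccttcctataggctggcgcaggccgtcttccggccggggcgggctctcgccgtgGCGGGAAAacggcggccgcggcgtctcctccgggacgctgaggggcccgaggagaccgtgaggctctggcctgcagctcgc
Counted from the start of the gene, the match begins at -5 in POLE2, -53 in POLA2 and -31 in GINS2. The windows of MCM10, CDC45 and MTHFD2 held none of the 3 strings. A match of letters is a description and not evidence of binding.

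Mitotic genes held a different element. The CHR letters, TTTGAA or TTCGAA on either strand, occurred in 43 of 70 windows of the mitotic lists (61.4%) against 13.6% of all windows, and a CCAAT box in 48 (68.6%) against 36.4%. Genes at least 2-fold lower as a whole held the CHR letters in 14.1% of windows and genes at least 2-fold higher in 21.6%. In the mitotic lists the median difference was -0.41 with these letters and -0.40 without them. The window of HMMR, a mitotic gene past 2-fold, is shown with both of its CHR matches in capitals.
HMMR, chr5:163460382-163460681, plus strand: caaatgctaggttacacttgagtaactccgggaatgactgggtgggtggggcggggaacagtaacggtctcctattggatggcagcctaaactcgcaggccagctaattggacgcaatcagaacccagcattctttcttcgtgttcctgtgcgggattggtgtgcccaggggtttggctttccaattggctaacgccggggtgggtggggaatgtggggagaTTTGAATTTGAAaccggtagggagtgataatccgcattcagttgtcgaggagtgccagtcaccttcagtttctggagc

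**Figure D4:**
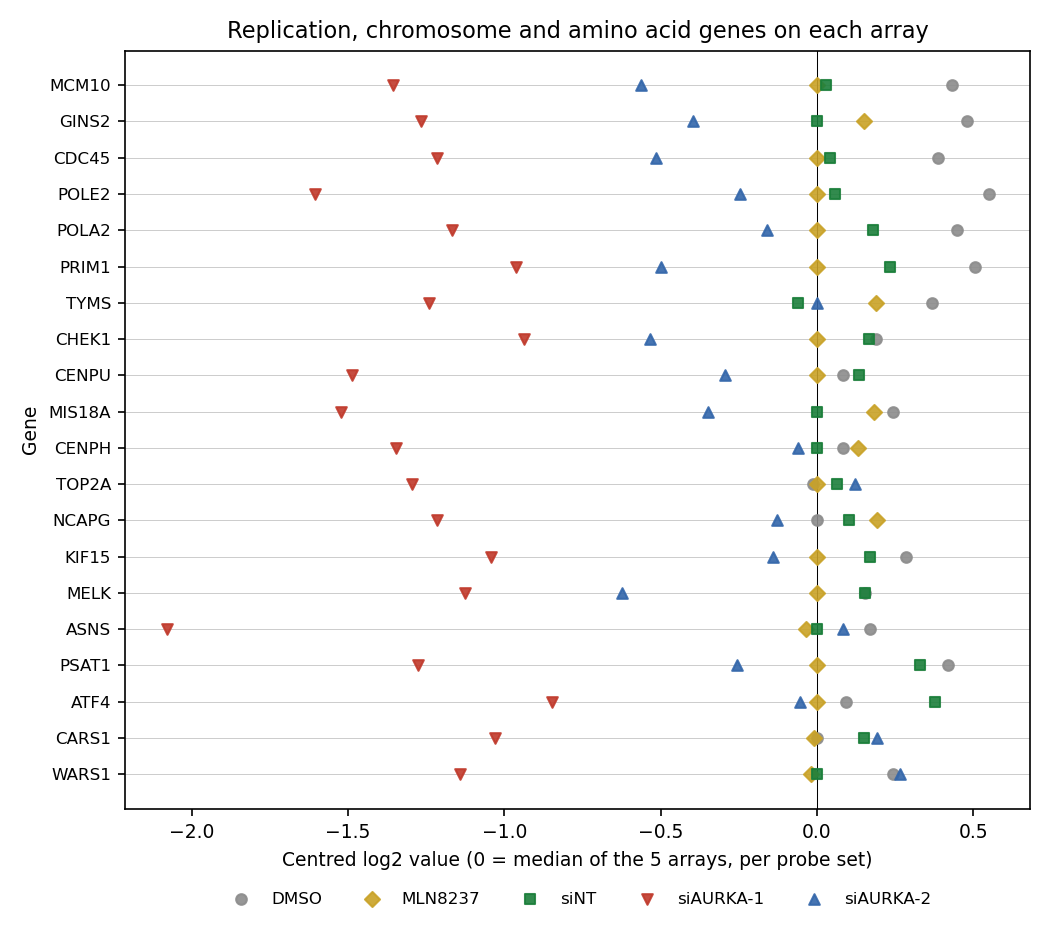
Centred log2 values of 20 replication, chromosome and amino acid genes on each of the 5 arrays. The siAURKA-1 marker is the leftmost in each row, between -2.08 (ASNS) and -0.85 (ATF4), and in rows such as MCM10 the siAURKA-2 marker lies between it and siNT.

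Amino acid supply genes formed another group of low values. ATF4 is a transcription factor that raises enzymes, transporters and tRNA synthetases when amino acids run short. Of 25 listed targets, ATF4 included, 12 were at least 1.5-fold and 5 at least 2-fold lower (MTHFD2 and SHMT2 are counted here and under nucleotide synthesis), 0 were 1.5-fold higher, and the median was -0.55 (-0.24 against DMSO). ASNS, asparagine synthetase, read 0.17 after DMSO, -0.03 after MLN8237, 0.00 after siNT, -2.08 after siAURKA-1 and 0.08 after siAURKA-2. PSAT1 of the serine pathway read 0.42 after DMSO, 0.00 after MLN8237, 0.33 after siNT, -1.28 after siAURKA-1 and -0.26 after siAURKA-2, and all 8 of its probe sets were lower. ATF4 itself read 0.09 after DMSO, 0.00 after MLN8237, 0.38 after siNT, -0.85 after siAURKA-1 and -0.06 after siAURKA-2. For these genes siAURKA-1 was the lowest array, with differences of -2.08, -1.61 and -1.22 (-0.94 for ATF4 against DMSO). The first serine enzyme PHGDH was at -0.93 and the last, PSPH, at 0.11. The stress factors DDIT3 (0.04) and ATF3 (0.00) lay at siNT, while STC2, secreted stanniocalcin, was lower (-1.23, and -0.51 against DMSO).

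The ASNS window is shown because it held the amino acid response letters TGATGNAA, in capitals, searched on both strands and found at -68 from the start.
ASNS, chr7:97872359-97872658, minus strand: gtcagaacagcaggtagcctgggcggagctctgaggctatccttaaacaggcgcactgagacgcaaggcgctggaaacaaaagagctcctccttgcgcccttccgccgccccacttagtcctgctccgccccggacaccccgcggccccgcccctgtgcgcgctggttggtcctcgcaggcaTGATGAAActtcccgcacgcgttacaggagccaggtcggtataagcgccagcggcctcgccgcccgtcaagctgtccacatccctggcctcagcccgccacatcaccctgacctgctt
These letters occurred in 2.55% of all windows, in 11 of 206 genes at least 2-fold lower (5.34%), in 0 of 88 at least 2-fold higher, and in 13 of 50 windows of the amino acid lists (26%). PSAT1 held none in its window.

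Transporters and tRNA charging enzymes were split. SLC7A11, the cystine importer, read 0.00 after DMSO, -0.66 after MLN8237, 0.56 after siNT, -1.06 after siAURKA-1 and 0.40 after siAURKA-2 and differed by -1.62, and the glutamine importer SLC1A5 by -1.08. Against DMSO these were -1.06 and -0.98. The leucine importer pair SLC7A5 and SLC3A2 gave -0.15 and -0.16. DMSO was the highest array for both, at 0.38 and 0.41 in the SLC7A5 probe sets and 0.47 for SLC3A2. Both genes therefore lay further below DMSO than below siNT. Cytosolic aminoacyl-tRNA synthetases charge tRNAs with their amino acids. Of 19 measured, 5 were at least 1.5-fold lower, with CARS1 for cysteine (-1.18) and WARS1 for tryptophan (-1.14, 3 of 4 probe sets lower) past 2-fold and SARS1 (-0.82), GARS1 (-0.75) and YARS1 (-0.61) next. QARS1, HARS1 and KARS1 lay above siNT (0.29, 0.07 and 0.06). BCAT1, the cytosolic branched-chain transaminase, read 0.21 after DMSO, 0.00 after MLN8237, 0.67 after siNT, -1.19 after siAURKA-1 and -0.99 after siAURKA-2 and differed by -1.85. Of the 12 branched-chain amino acid enzymes 10 lay above siNT (47.2% of all genes did), up to 0.67 for DBT, a subunit of the dehydrogenase that follows. EIF4EBP1, a repressor of cap-dependent translation, was at -1.35.

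Unfolded protein response genes did not share this. Of 21, 0 were at least 1.5-fold higher and 1 lower, XBP1 (-0.70, or -0.26 against DMSO), and the chaperone HSPA5 (BiP) was at 0.31. Of 25 ribosomal protein genes 21 lay above siNT (47.2% of all genes did), and siAURKA-1 was the highest of the 5 arrays for 21 (27.8% of all genes). In size, ribosomal proteins (median 0.06), respiration genes (0.11, 0 of 25 past 1.5-fold either way) and proteasome subunits (0.01) lay near siNT. Among them RPS14 was the low exception (-0.59, 2 of 3 probe sets lower) and PSMA1 the high one (0.80). The PSMA1 value is the middle of a pair of probe sets at -0.23 and 1.84, so they disagree in sign. Of 32 ribosome assembly factors 24 lay below siNT (42.2% of all genes did), with UTP20 past 2-fold (-1.16, or -0.92 against DMSO) and NOLC1 next (-0.98). Splicing factors lay near siNT (median -0.10, 0 of 30 past 1.5-fold).

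Inflammatory ligands were lower in a few members rather than as a family. In the interleukin 1 family 2 of 13 were at least 2-fold lower, IL1A and IL1B, and in the chemokines 3 of 18. IL1B, the secreted partner of IL1A, read -0.09 after DMSO, 0.00 after MLN8237, 0.34 after siNT, -0.85 after siAURKA-1 and 1.24 after siAURKA-2. CCL20, which attracts CCR6-bearing lymphocytes, read -0.72 after DMSO, 0.00 after MLN8237, 0.17 after siNT, -2.13 after siAURKA-1 and 0.97 after siAURKA-2. CXCL8, the neutrophil attractant interleukin 8, read -1.14 after DMSO, 0.06 after MLN8237, 0.00 after siNT, -1.38 after siAURKA-1 and 0.83 after siAURKA-2. In these genes siAURKA-1 was the lowest array and siAURKA-2 the highest, with DMSO close to siAURKA-1 for CXCL8. The differences were -1.20, -2.30 and -1.38, and against DMSO -0.76, -1.41 and -0.24. CXCL1 was at -1.35, or -0.93 against DMSO, and the receptor antagonist IL1RN at 0.24. IL24, a cytokine of the IL10 family, read -0.90 after DMSO, 0.00 after MLN8237, 0.72 after siNT, -0.95 after siAURKA-1 and 1.43 after siAURKA-2, so its difference of -1.67 became -0.05 against DMSO. PTX3, a soluble pattern recognition protein induced by interleukin 1, read -0.22 after DMSO, 0.00 after MLN8237, 0.91 after siNT, -1.29 after siAURKA-1 and 1.54 after siAURKA-2 and differed by -2.21, or -1.08 against DMSO. NF-kB subunits and inhibitors had a median of 0.00, and 0 of 17 passed 2-fold. Of these, 1 was at least 1.5-fold higher (0.61) and 1 lower, TNFAIP3 at -0.59, which turned to 0.52 against DMSO. RELA was at -0.09 and NFKBIA at 0.26. In windows of the inflammatory lists the AP-1 letters TGANTCA, on both strands, occurred in 11 of 37 (29.7%) against 5.74% of all windows and 6.8% of genes at least 2-fold lower. The kappa-B motif occurred in 13 of 37 (35.1%) against 6.41% and 7.77%.

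Interferon and interferon-stimulated genes, counted together, gave no shared shift. The median of 34 was 0.00, 0 were at least 1.5-fold lower, and 3 were at least 1.5-fold higher. These were IFNE, interferon epsilon of epithelia (1.76), PARP9 (0.74) and HERC6 (0.64). IFIT1, MX1 and ISG15, commonly induced by foreign RNA, gave 0.17, -0.02 and -0.03. Sensors and effectors of small and double-stranded RNA lay near siNT too, with TLR3 at 0.26, IFIH1 at 0.20 and the siRNA slicer AGO2 at 0.26, while DICER1 was lower (-0.68, but 0.02 against DMSO).

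Epithelial and mesenchymal genes differed member by member. Of 28 mesenchymal genes, 4 were at least 2-fold lower and 1 higher, and the median was 0.00. Besides VIM the lower ones were NT5E, the ecto-enzyme CD73, which read -0.32 after DMSO, 0.16 after MLN8237, 0.00 after siNT, -1.61 after siAURKA-1 and 0.24 after siAURKA-2 (-1.61), the methionine sulfoxide reductase MSRB3 (-1.19, or -0.98 against DMSO) and SNAI2, the repressor Slug (-1.03, or -0.55 against DMSO). The higher one was S100A4, and SPARC (0.78), LOX (0.57) and TNC (0.50, or 1.11 against DMSO) also lay above siNT. ZEB1 was at -0.19, TWIST1 at 0.22 and FN1, fibronectin, at -0.31, which was 0.43 against DMSO. Of the 28, 13 lay above siNT and 13 below.

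Junction genes were higher in part. OCLN, the tight junction protein occludin, read 0.00 after DMSO, 0.00 after MLN8237, -0.11 after siNT, 1.58 after siAURKA-1 and -0.39 after siAURKA-2, and the claudin gene CLDN4 read -0.33 after DMSO, 0.00 after MLN8237, 0.05 after siNT, 1.18 after siAURKA-1 and -0.17 after siAURKA-2. Both were at least 2-fold above each of the other arrays (1.68 and 1.13). CGN, the junction adaptor cingulin, gave 1.15 and is named after its value was seen. PERP (0.80), the desmosomal plakin DSP (0.60) and E-cadherin (CDH1, 0.60, or 0.52 against DMSO) were at least 1.5-fold higher, and CLDN1 at least 1.5-fold lower (-0.59, or -0.10 against DMSO), among 25 members. The CDH1 value is the middle of a pair of probe sets at 1.02 and 0.18. Beside ZNF750, the squamous regulators GRHL3 (1.36) and ELF3 (1.14, or 0.65 against DMSO) were at least 2-fold higher and KLF4 (-1.19) lower, KLF4 being at -0.16 against DMSO. The simple epithelial keratin KRT19 (1.02, or 0.95 against DMSO) passed 2-fold and the basal KRT15 (0.97) came close, while KRT14 (0.10) and KRT10 (-0.02) were near siNT. Late differentiation genes of the cornified envelope lay near siNT, and 0 of 30 passed 1.5-fold, with involucrin (IVL) at -0.22 and PPL, periplakin, highest at 0.53. Of the S100 genes, S100A9 was higher (1.15) and its dimer partner S100A8 at -0.10, while S100A11 was lower (-1.11, or -0.81 against DMSO).

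**Figure D5:**
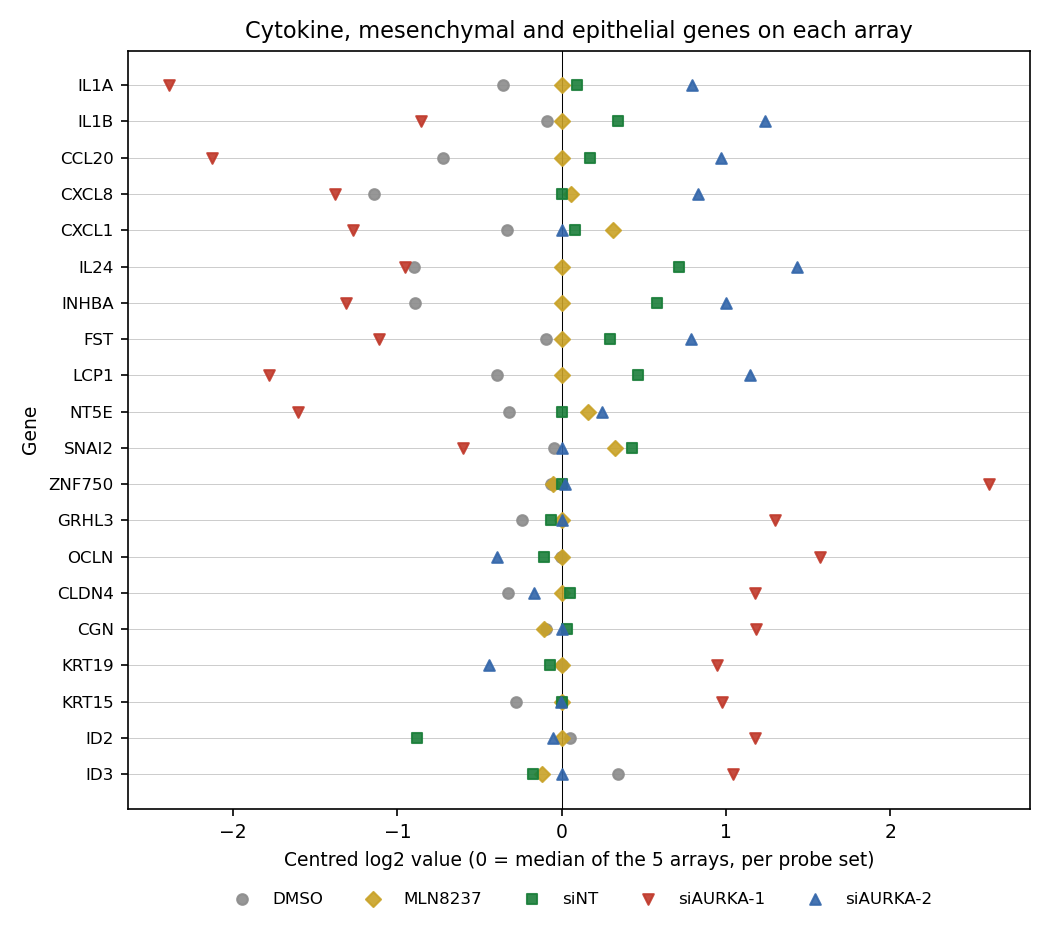
Centred log2 values of 20 cytokine, mesenchymal and epithelial genes on each of the 5 arrays. From ZNF750 downward the siAURKA-1 marker is on the right (2.60 for ZNF750), above it on the left (-2.39 for IL1A), and the siAURKA-2 marker is the rightmost for IL1A and CCL20.

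Ligands and feedback genes of the TGF-beta family differed in opposite directions. INHBA, which encodes the activin A subunit, read -0.90 after DMSO, 0.00 after MLN8237, 0.58 after siNT, -1.31 after siAURKA-1 and 1.0 after siAURKA-2, and FST, the activin antagonist follistatin, read -0.10 after DMSO, 0.00 after MLN8237, 0.30 after siNT, -1.11 after siAURKA-1 and 0.79 after siAURKA-2. Both read lowest with siAURKA-1 and highest with siAURKA-2, and the differences were -1.89 and -1.41, or -0.42 and -1.02 against DMSO. ID2, which is induced by BMP and blocks DNA binding by helix-loop-helix factors, read 0.05 after DMSO, 0.00 after MLN8237, -0.88 after siNT, 1.18 after siAURKA-1 and -0.05 after siAURKA-2 and differed by 2.06, with ID3 at 1.22 (0.70 against DMSO) and ID1 at 0.73. Against DMSO ID2 was at 1.13 and ID1 at -0.31. The inhibitory SMAD7 was at -0.02 and TGFB1 at 0.22. Of 31 members 2 were at least 2-fold higher and 2 lower.

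YAP-responsive genes beyond ANKRD1 were lower in part. CCN1 (-1.18, or -0.95 against DMSO) and CCN2 (-1.16), matricellular proteins, completed the 3 of 32 members at least 2-fold lower, but CCN2 was at -0.20 against DMSO. AMOTL2 was at -0.19 and LATS2 at -0.05. The matrix glycoprotein gene THBS1 read 0.00 after DMSO, 0.09 after MLN8237, 0.38 after siNT, -1.13 after siAURKA-1 and -0.77 after siAURKA-2 and differed by -1.50, and COL4A5 of basement membrane was higher (1.23, 2 of 3 probe sets). Among growth factors the vasoconstrictor peptide EDN1 (-1.32, or -0.63 against DMSO), apelin (APLN, -1.31) and the EGF receptor ligand HBEGF (-1.19, or -0.66 against DMSO) were lower, while EGFR was at -0.14. FOSL1 (-1.22, or -0.91 against DMSO) and the MAPK phosphatase DUSP4 (-1.13, or -0.40 against DMSO) were lower, and EGR1 was higher against siNT (1.07) but lower against DMSO (-0.40).

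Membrane and lysosomal genes were among those higher. GPNMB, a lysosome-associated glycoprotein, read -0.35 after DMSO, -0.22 after MLN8237, 0.00 after siNT, 1.88 after siAURKA-1 and 0.97 after siAURKA-2 with all 5 probe sets higher (1.88). Of 32 lysosome and autophagy genes 5 were at least 1.5-fold higher and 1 lower (background 2.57% and 4.48%), with a median of 0.20. The sialidase NEU1 (0.98), cathepsin V (CTSV, 0.86, or 0.39 against DMSO), the saposin precursor PSAP (0.69) and cathepsins H and Z (CTSH and CTSZ, 0.63 and 0.62, or 0.42 and 0.29 against DMSO) were the 5, and the cholesterol exporter NPC1 was the lower one (-0.80, or -0.19 against DMSO). The CTSH value is the middle of a pair of probe sets at 1.24 and 0.02. In cholesterol synthesis 17 of 19 genes lay above siNT (47.2% of all genes did), with HMGCS1 (0.93) and MSMO1 (0.78) past 1.5-fold and a median of 0.15, or 0.51 against DMSO. ANXA9 was the annexin past 2-fold above siNT (1.21) and ANXA3 the one below (-1.21, or -0.99 against DMSO). TXNIP, which binds thioredoxin and restrains glucose uptake, was at 1.02, and is named after its value was seen.

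Secreted and surface proteases differed in both directions. Of 28 matrix metalloproteinase, ADAMTS, inhibitor and plasminogen genes, 2 were at least 2-fold lower and 3 at least 1.5-fold higher. ADAMTS1, an antiangiogenic protease, read -0.01 after DMSO, 0.61 after MLN8237, 0.97 after siNT, -0.26 after siAURKA-1 and -0.20 after siAURKA-2 and differed by -1.23, and ADAMTS6 by -1.01, or -0.25 and -0.52 against DMSO. The ADAMTS6 difference of -1.01 is the middle of a pair of probe sets at -1.89 and -0.13. The interstitial collagenase MMP1 (0.93), the sheddase ADAM10 (0.74) and the inhibitor TIMP2 (0.65) were the higher ones, while TIMP3 was lower (-0.72, or 0.12 against DMSO). The epidermal kallikrein KLK5 was higher (0.90, or 0.27 against DMSO) and the serine protease PRSS23 lower (-1.18, or -0.11 against DMSO). Integrin and laminin genes were at least 1.5-fold higher in 3 of 20 and lower in 0, namely ITGB6 (0.87), which pairs into the receptor that activates latent TGF-beta, LAMB2 (0.69) and ITGB8 (0.61, or 0.57 against DMSO). The ITGB6 value is the middle of a pair of probe sets at 1.48 and 0.27, and the ITGB8 probe sets ranged from 0.29 to 2.52.

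Lipid, glycan and trafficking genes showed single large values. In fatty acid handling 2 of 21 were at least 2-fold lower, the lipase inhibitor ANGPTL4 (-1.24, or -0.01 against DMSO) and the epidermal fatty acid carrier FABP5 (-1.07), while the retinoic acid carrier CRABP2 was higher (0.79, or 0.56 against DMSO). GALNT3, which starts O-glycan chains, read 0.00 after DMSO, -0.01 after MLN8237, 0.70 after siNT, -0.98 after siAURKA-1 and 0.06 after siAURKA-2 and differed by -1.68 (2 of 3 probe sets lower), or -0.98 against DMSO. The sialyltransferase ST6GALNAC2 was higher (1.26). Among secretory GTPases and fusion proteins RAB8A (-0.99) and RAB31 (-0.91, or -0.01 against DMSO) were lower, and RAB27B (0.64) and VAMP8 (0.84) higher. Of 28 glycolysis and hypoxia genes the glucose importer SLC2A1 was the one past 1.5-fold (-0.68, or -0.49 against DMSO). Of 13 metallothionein and metal genes 12 lay below siNT (42.2% of all genes did) and 2 were at least 1.5-fold lower, with MT1X lowest (-0.92, or -0.48 against DMSO). The list median was -0.16 against siNT but 0.00 against DMSO. Metallothionein copies are near-identical, so their probe sets may share signal. The clock repressor CRY1 was lower (-0.84) and the other 16 clock genes lay within 1.5-fold.

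Death and p53 genes were mostly close to siNT. Of 26 apoptosis regulators 0 were 2-fold away in either direction, with CASP1 lowest (-0.82 with 7 of 9 probe sets lower, but 0.10 against DMSO), MCL1 at -0.53 and BCL2L1 at 0.01. Of 23 p53 targets 3 passed 2-fold, all of them higher, and 3 were at least 1.5-fold lower. The higher ones were the cytokine GDF15 (1.52, or 0.86 against DMSO), CDKN1A and the death receptor FAS (1.01, or 0.49 against DMSO). CDKN1A read -0.45 after DMSO, -0.33 after MLN8237, 0.00 after siNT, 1.05 after siAURKA-1 and 0.75 after siAURKA-2 and was highest with siAURKA-1. MDM2 was at 0.24, and SESN2, shared with the ATF4 list, at -0.82, or -0.24 against DMSO.

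The other AURKA siRNA shared the siNT array with this comparison, so the values are set side by side only. Of the 251 lower genes 35 (13.9%), and of the 107 higher genes 15 (14%), were at least 2-fold from siNT in the same direction with siAURKA-2, and 1 and 0 were 2-fold the other way. Over all genes siAURKA-2 was at least 2-fold below siNT for 0.872% and above it for 0.389%, with the siNT array common to both. The one was SUN3, a nuclear envelope protein gene, at -1.39 with siAURKA-1 and 1.55 with siAURKA-2. DTL, which targets licensing factors for destruction, read 0.30 after DMSO, 0.00 after MLN8237, 0.12 after siNT, -1.35 after siAURKA-1 and -1.11 after siAURKA-2, low on both siRNA arrays (-1.47 and -1.23). MEST, an imprinted gene, gave -1.70 and -1.43, and GULP1, an engulfment adaptor, 2.30 and 1.18. By contrast ASNS gave -2.08 and 0.08, TOP2A -1.36 and 0.06, OCLN 1.68 and -0.29, and TYMS -1.18 and 0.06. List medians with siAURKA-2 against siNT were -0.38 for helicase and licensing, -0.24 for the centromere and -0.07 for ATF4 targets, beside -0.66, -0.49 and -0.55 with siAURKA-1.

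Markers of other cell types lay near siNT. Of 10 fibroblast, 11 leukocyte and 10 endothelial markers measured, 0 were at least 1.5-fold from siNT in either direction, and the members ranged from 0.00 to 0.09, from -0.12 to 0.08 and from -0.16 to 0.12. Of 10 epithelial markers 2 were at least 1.5-fold higher, CDH1 and KRT8 (0.59, or -0.12 against DMSO), and 0 lower. Fewer cells in S phase and less of a transcript in each cell cannot be told apart in RNA from whole cultures.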

How the data were processed

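RNA from GFP-SAS cells was hybridised to GeneAtlas human expression arrays, 1 array for each of 5 treatments. The authors deposited 1 log2 value per probe set and array, made with RMA per the submitters' processing notes; the log base and software were not given in the labels used here, and the values are read as log2 from their range. In the deposited table the median over the 5 arrays is 0 for all 49386 probe sets, so levels were removed before deposit. Probe sets were named from the platform annotation: 45253 carried 1 symbol and were used, 1327 carried several, 2713 had no listed gene, and 93 were controls. A gene's value was the median of its probe sets on each array, which gave 18239 genes, 6417 of them from 1 probe set.

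Differences, counts and list medians were computed with Python 3.11.15, pandas 2.3.3 and numpy 2.4.6, after the code was tested on simulated data. With 1 array per group no test was run. The siNT dose is not used here, because the wording of the treatment label is ambiguous. Named genes were the 40 highest and 40 lowest, up to 6 members of each list furthest from 0 in each direction, genes where siAURKA-1 or siNT lay furthest past the 4 other arrays, genes furthest to the same or opposite sides with both siRNAs, AURKA, and relatives of a named gene. Members given for being near siNT, and FRK, FXYD3, AP2B1, CGN, CENPS, CENPX and TXNIP, were named after their values were seen. The gene lists and the comparison were chosen with earlier results of these data known. Promoter windows are 1 per gene, at the first listed start. Alternatives were other fold thresholds, DMSO or the mean of both controls in place of siNT, centring arrays on their medians, the mean of probe sets, and the probe set nearest 0.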

Additional observations from a re-analysis of the deposited data

How the results depend on the processing

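AURKA stayed lower whichever control was used, between -3.51 (DMSO as control) and -3.36 (siNT). It has 1 probe set and the array medians are 0.00, so the probe set and centring alternatives could not change its value. At 1.5-fold 468 genes were higher and 818 lower, and at 3-fold 21 and 47. Taking for each gene the probe set nearest 0 left 155 genes at least 2-fold lower and 72 higher. Against DMSO the counts were 134 higher and 189 lower, of which 63 and 138 were also called against siNT. Against the mean of both controls they were 99 and 200, and with the mean of probe sets 103 and 240. Centring arrays on their medians left 107 and 251, which it could not change because the medians were already 0.00. Against DMSO 11 named genes that were at least 1.5-fold from siNT changed sign: TMPRSS11E (0.32), HSD11B1 (0.087), ALOX5AP (0.36), EGR1 (-0.40), KIF3A (-0.23), ID1 (-0.31), CASP1 (0.0998), DICER1 (0.0181), TIMP3 (0.12), TNFAIP3 (0.52) and KRT8 (-0.12). List medians against DMSO moved most for cholesterol synthesis (from 0.15 to 0.51), ATF4 targets (from -0.55 to -0.24), integrins and laminins (from 0.00 to 0.28) and MCM helicase and licensing (from -0.66 to -0.91), and tubulins went from -0.52 to -0.30. The cause of these shifts was not tested. No paired analysis was possible because each group is 1 array. The single array a side limits precision, and signal over background could not be examined because levels were removed from the table.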
